A study of Arabidopsis thaliana with 6 samples.

Results

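The RLP genes of Arabidopsis thaliana encode receptor-like proteins, and this account follows where ENAP1, and ENAP1 together with EIN2, were found at them. The members were chosen by name: every protein-coding gene of chromosomes 1 to 5 whose symbol is RLP followed by a number, which gave 52 of 27444 genes. The family was picked for description with its target counts in these lists already known, so those counts are given as a description with no test. Symbols came from a RefSeq gene table of assembly TAIR10.1.

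A receptor-like protein carries leucine-rich repeats outside the cell, a single membrane-spanning segment and a short tail without a kinase. It therefore works with partner kinases: SOBIR1 is bound constitutively by many of them, and co-receptors such as BAK1 join when a ligand is present. Several members sense fragments of microbes and start immune signalling, and others act in development. Many lie in tandem arrays of related genes. ENAP1 is a nuclear protein that associates with EIN2, the ethylene signalling protein whose cleaved end reaches the nucleus, and with histones.

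The 4 peak lists came from whole Col-0 seedlings that had spent 3 days in darkness at 24 °C. They then received 10 ppm ethylene, or hydrocarbon-free air without it, for 4 hours. ENAP1 ChIP used an antibody against green fluorescent protein, and the labels name no tagged line. In the ENAP1-EIN2 reChIP the recovered chromatin was precipitated again with an EIN2 antibody. The groups were ethylene reChIP, air reChIP, ethylene ENAP1 ChIP and air ENAP1 ChIP, with 1 library each. The other 2 of the 6 samples were the ethylene and air inputs. One label of the ethylene samples, the treatment, reads air, against their titles, and the titles were used. No value below has a replicate check, and no p-value was computed.

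Tags kept after removal of duplicates numbered 304818 in the ethylene reChIP and 644263 in the air reChIP, against 8811720 in the ethylene ENAP1 ChIP and 8400099 in the air ENAP1 ChIP. The reChIP lists therefore rest on few tags. The median pileup at a summit, the height of the fragments stacked there, was 4 in the ethylene and 5 in the air reChIP list. In the ENAP1 ChIP lists it was 33.8 in ethylene and 46.9 in air. ENAP1 pileups are not whole numbers and so are scaled heights, not counts of fragments. The ENAP1 controls kept fewer tags than the libraries, 4809861 in ethylene and 7160364 in air, so the 2 ENAP1 medians are not compared. The 2 air lists share 1 control library. The ethylene reChIP was called against the air reChIP library, so its peaks mark DNA more abundant in the ethylene than in the air reChIP. Presence in only 1 reChIP list therefore does not mean that signal was absent in the other treatment. Fold is the authors' enrichment of a peak over its local control. Fold, and the pileup given for single peaks, are compared only inside a list. The percentile of a peak ranks its fold among all peaks of the same list.

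A gene counted as a target of a list where the summit of at least 1 peak fell inside it or up to 1000 bp beyond either edge. The share of RLP genes that were ENAP1 ChIP targets lay below that of all protein-coding genes, and the share that were reChIP targets lay above it. Of the 52 RLP genes, 12 (23.1%) were ethylene ENAP1 targets, beside 36.4% of all protein-coding genes. In air, 13 (25.0%) were ENAP1 targets, beside 38.6%. In the ethylene reChIP list 21 (40.4%) were targets, beside 34.0%, and in the air reChIP list 22 (42.3%), beside 30.5%. RLP genes are longer than most, with a median of 2809 bp beside 2078 bp. Among genes of 2000 to 4000 bp, 20.0% of the 40 RLP genes were ethylene ENAP1 targets beside 43.3% of all 11196 genes of that length, and in air 17.5% beside 45.4%. The same comparison gave 37.5% beside 38.2% for the ethylene reChIP and 45.0% beside 33.7% for the air reChIP. Whether any of these differences is larger than the spread between libraries was not tested.

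**Figure D1:**
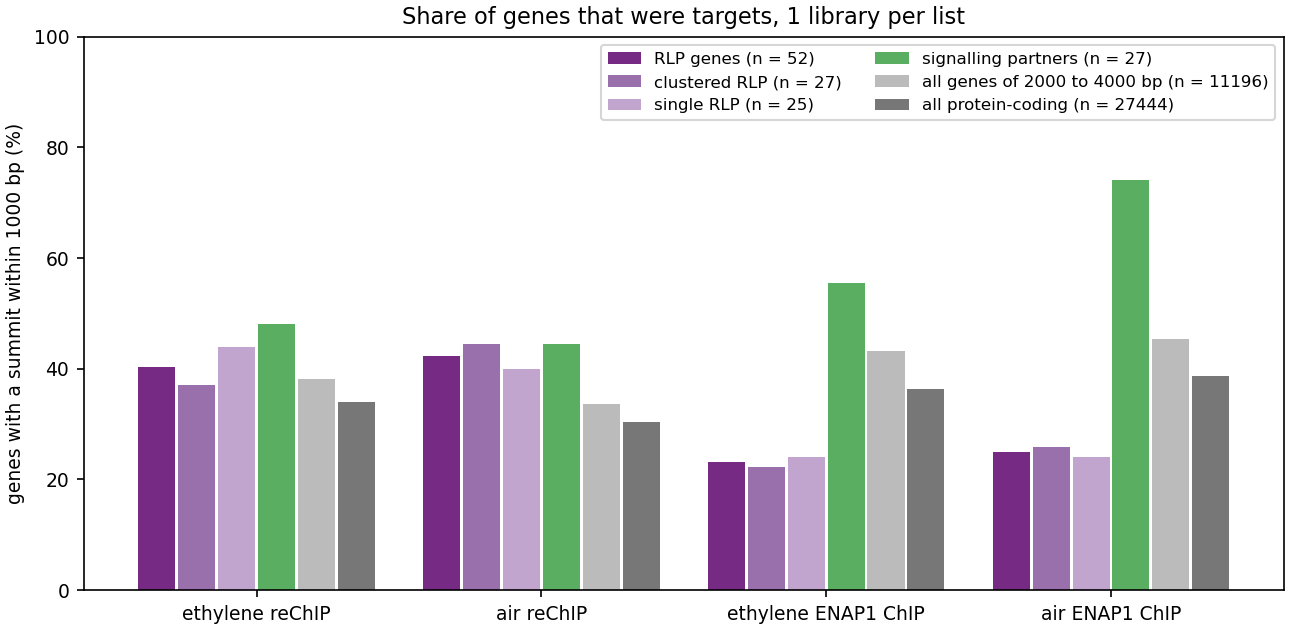
Share of genes (%) with a peak summit inside them or within 1000 bp, for each of the 4 lists; bars show RLP genes, their clustered and single members, 27 signalling partners, all protein-coding genes of 2000 to 4000 bp and all protein-coding genes, with 1 library per list and no error. The RLP bars stand at 23.1% and 25.0% in the ENAP1 ChIP lists, under the bars of all genes (36.4% and 38.6%), and at 40.4% and 42.3% in the reChIP lists.

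Inside the genes the ENAP1 shares were lower still. A summit lay inside 5 RLP genes (9.62%) in each ENAP1 list, where 21.4% of all genes had one in ethylene and 23.6% in air. Inside RLP genes the reChIP had summits at 15 members (28.8%) in ethylene and 16 (30.8%) in air, beside 22.3% and 18.7% of all genes. Among genes of 2000 to 4000 bp the ethylene reChIP had a summit inside 25.0% of RLP genes, beside 26.4% of all. In air these were 32.5% beside 22.1%. At that length the ENAP1 shares were 5.0% beside 27.5% in ethylene and 2.5% beside 29.8% in air. The median distance from an RLP gene to the nearest ENAP1 summit was 3328 bp in ethylene and 2888 bp in air, beside 2651 bp and 2345 bp for all genes. The distance to the nearest air reChIP summit was shorter for RLP genes, 2148 bp beside 3020 bp, and that to the nearest ethylene reChIP summit was 2826 bp beside 2694 bp.

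**Figure D2:**
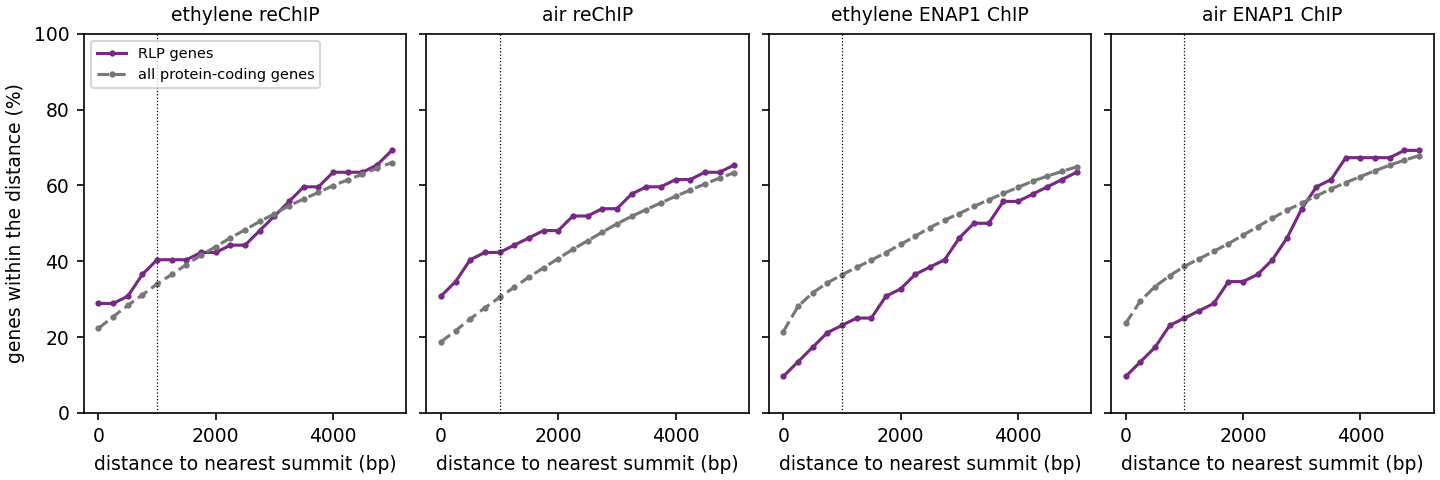
Share of genes (%) whose nearest peak summit lies within a given distance (bp, 0 meaning inside the gene), for RLP genes (solid) and all protein-coding genes (dashed) in each list; the dotted line marks 1000 bp. In the ENAP1 ChIP lists the RLP curve starts at 9.62% beside 21.4% in ethylene and 23.6% in air for all genes, while in the air reChIP list it starts at 30.8% beside 18.7%.

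A smaller share of reChIP than of ENAP1 peaks at members had a q of 0.05 or lower, in libraries with fewer kept tags. All 14 air ENAP1 peaks at members, and 13 of the 14 in ethylene, had a q of 0.05 or lower, beside 95.5% of the whole air list and 92.0% of the ethylene list. Counted with such peaks alone, RLP targets numbered 11 in ethylene (beside 34.4% of all genes) and 13 in air (beside 37.5%). The reChIP counts shrank to 14 in ethylene (26.9%, beside 22.5%) and 2 in air (3.85%, beside 7.07%). Among genes of 2000 to 4000 bp these shares were 20.0% beside 25.5% in ethylene and 2.5% beside 7.69% in air. With a −log10 q of at least 5, 5 members remained in the ethylene ENAP1 list (beside 22.4%), 7 in air (beside 26.9%) and 1 in the ethylene reChIP list (beside 0.707%). The air reChIP list had none, beside 0.222%. Of the 25 ethylene reChIP peaks at members, 20 rested on 3 to 5 tags, beside a median of 4 in the whole list. In air these were 21 of 24, beside a median of 5. The share of all peaks with 3 to 5 tags was not computed, so these counts are not read as particular to RLP genes. All but 2 of the 22 air reChIP members were counted through peaks with a q above 0.05. Of the air reChIP peaks at members, 8.33% had a q of 0.05 or lower, beside 19.4% of the whole air list. In ethylene these were 60.0% beside 57.5%.

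**Figure D3:**
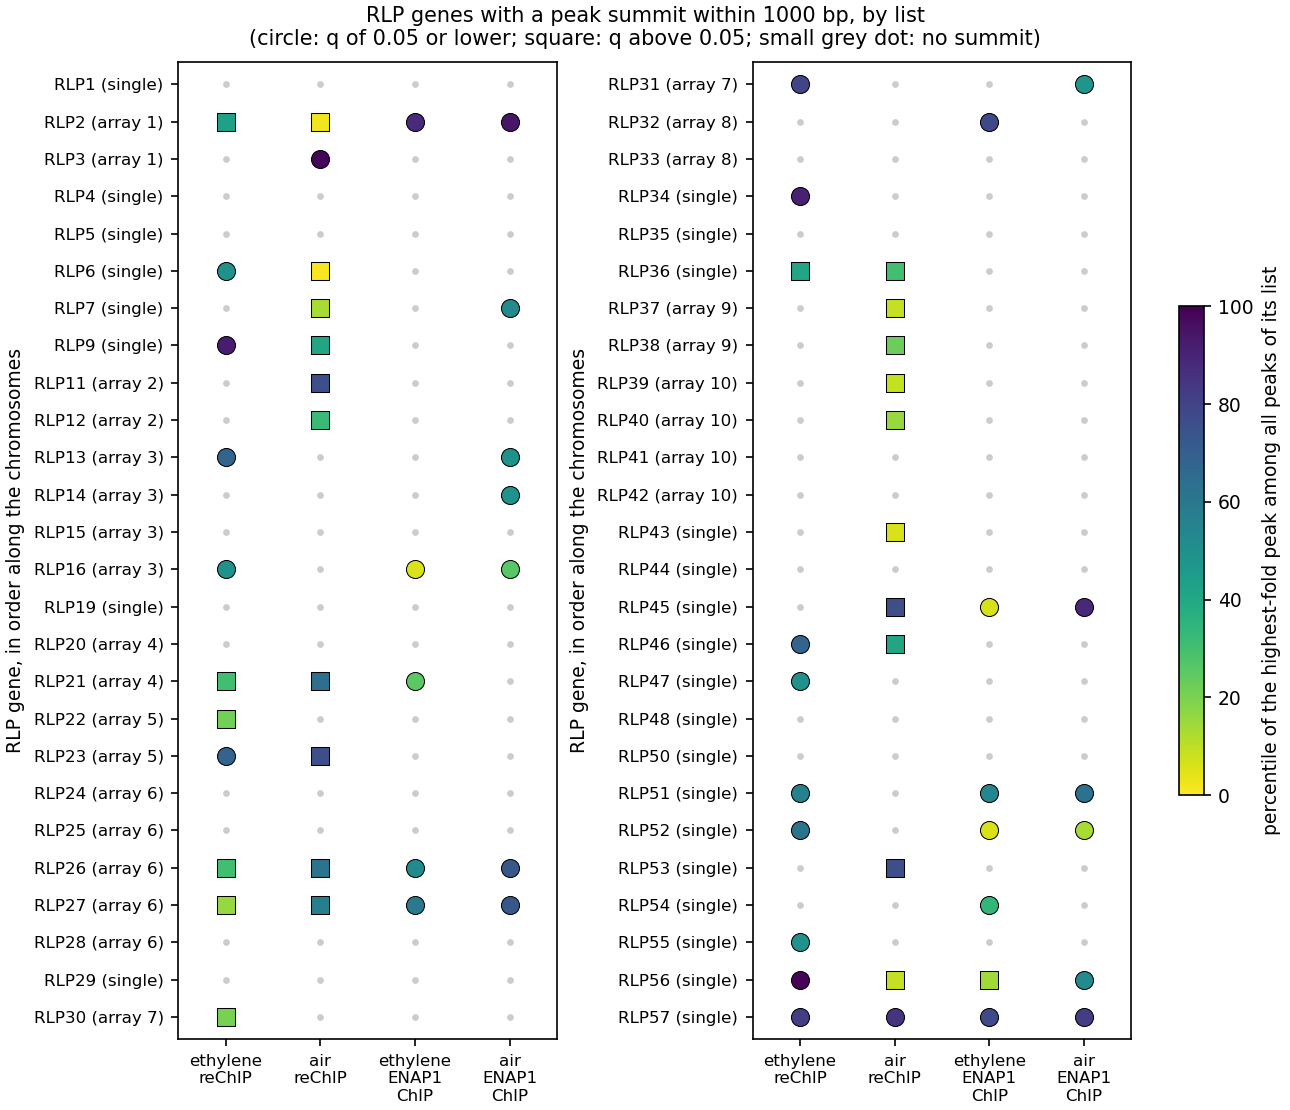
Each of the 52 RLP genes (rows, in order along the chromosomes, with the number of its array or single) against the 4 lists (columns); a large symbol marks a target, coloured by the percentile of its highest-fold peak in that list, as a circle where q is 0.05 or lower and a square where it is above. Most air reChIP symbols are squares, and 17 genes have no symbol in any column.

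Members with an ENAP1 summit inside the gene are described next. RLP57 (AT5G65830), a single gene, had an ENAP1 peak of 3.96-fold with a pileup of 38.8 in ethylene (5:26343094-26343439, TAIR10) and of 4.16-fold with a pileup of 65.6 in air (5:26342907-26343465). The summits were 21 bp apart and lay 255 and 276 bp inside the gene edge. The folds stood at percentiles 77.4 and 82.2 of their lists, and each pileup is on the scale of its own list. RLP57 also had an ethylene reChIP peak of 4.11-fold and 7 tags (5:26343030-26343187), whose summit lay 202 bp from the ethylene ENAP1 summit and which overlapped that peak. In the air reChIP list its peaks lay outside the gene on both sides, at 3.92- and 3.10-fold with 6 tags each, the weaker one inside AT5G65820.

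RLP51 (AT4G18760), known as SNC2 because a gain-of-function allele switches on defence, had ENAP1 peaks of 2.98-fold in ethylene (4:10309366-10309604) and 3.06-fold in air (4:10309335-10309614). The pileups were 48.6 and 87.8, and the summits 17 bp apart, 174 and 157 bp inside the edge. The ethylene reChIP peak in RLP51 (3.53-fold, 4 tags) lay elsewhere in the gene, 836 bp from the ENAP1 summit, and no air reChIP summit lay within 1000 bp.

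RLP45 (AT3G53240) had an ENAP1 summit 28 bp inside its edge in ethylene and 53 bp inside in air. The folds were 1.89 in ethylene (percentile 6.43, pileup 31.1) and 4.88 in air (percentile 88.6, pileup 67.3). This was the widest gap in percentile among the members called in both ENAP1 lists. The edge of the neighbouring gene AT3G53235 was 44 bp from the ethylene and 19 bp from the air summit. Its air reChIP peak (3.75-fold, 5 tags) lay deep in the gene, 2705 bp from the nearest edge.

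RLP52 (AT5G25910), linked to resistance against powdery mildew, held paired ENAP1 peaks in each list, all of low fold. In ethylene they were 1.87- and 1.84-fold, and in air 1.60- and 2.00-fold. The control level under the outer peak was 3.34 times the list median in ethylene and 3.71 times in air. The control level is computed from pileup and fold, and its part in these low folds was not tested. The ethylene reChIP peak of RLP52 (3.62-fold, 4 tags) lay near the other end of the gene, 1484 bp from the closest ENAP1 summit in ethylene and 1465 bp from that in air.

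RLP32 (AT3G05650), the receptor for bacterial translation initiation factor IF1, had an ENAP1 peak in ethylene only (3:1645185-1645390; 4.03-fold, pileup 39.3, −log10 q 11.0). Its summit lay 424 bp inside the gene, and the nearest air ENAP1 summit was 9915 bp from it. RLP13 (AT1G74170) had one in air only (1:27896048-27896219; 2.68-fold, pileup 27.3), 308 bp inside. The same peak made the next gene of the array, RLP14, an air target at 912 bp. The ethylene reChIP summit counted for RLP13 lay 476 bp away, inside TRM4 (3.65-fold, 4 tags). No difference between the treatments could be tested with 1 library each.

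A second set had its ENAP1 summits in the space beside the gene. RLP56 (AT5G49290) had a summit 69 bp outside its edge in ethylene (2.14-fold, pileup 14.2, q above 0.05) and 40 bp outside in air (2.76-fold, pileup 28.1). RLP7 was an ENAP1 target in air alone, with a summit 195 bp outside (2.76-fold), and had an air reChIP peak inside the gene (2.63-fold, 4 tags). RLP54 was an ethylene target alone, 182 bp outside (2.53-fold), though AT5G40180 lay closer, at 58 bp. RLP16 had a peak 533 bp outside in ethylene and 553 bp in air (1.86- and 2.26-fold), nearer to GDPD5, where the control level was 3.77 and 3.00 times the median. RLP21 was an ethylene target at 803 bp (2.37-fold), with AT2G25480 only 44 bp from the summit.

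RLP26 (AT2G33050) and RLP27 (AT2G33060) are neighbours in an array and shared an ENAP1 peak in the gap between them. It was 2.92-fold in ethylene (2:14024933-14025112, pileup 25.7) and 3.49-fold in air (2:14024891-14025157, pileup 43.5), with summits 4 bp apart. An air reChIP peak of 3.44-fold and 5 tags lay in the same gap (2:14024968-14025079), and the ethylene reChIP peaks of these genes (2.92- and 2.83-fold, 3 tags each) lay inside them instead. Another air reChIP peak (3.52-fold, 5 tags) lay 325 bp beyond the other edge of RLP26. All 4 reChIP peaks had a q above 0.05.

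The last ENAP1 targets had the summit in another gene. The highest ENAP1 fold counted for any RLP gene was that at RLP2 (AT1G17240), 4.99 in ethylene (1:5895660-5896118, pileup 93.9) and 6.26 in air (1:5895748-5896229, pileup 112). RLP2, which can stand in for the meristem receptor-like protein CLV2, lay 495 and 483 bp away, and the summits fell inside the small-peptide gene RTFL11. Its reChIP peaks were weak, 3.23-fold with 4 tags inside the gene in ethylene and 2.28-fold with 3 tags beside it in air. Likewise a second summit counted for RLP26 lay in ATP3, the gene of a mitochondrial ATP synthase subunit (2.32-fold in ethylene, 2.31-fold in air). A second summit for RLP27 lay in NSP2, a nitrile-specifier gene of glucosinolate breakdown (3.14- and 2.60-fold). The air summit counted for RLP31 lay in ALY2 (2.65-fold). When each summit was given only to its nearest protein-coding gene, ENAP1 targets numbered 7 RLP genes in ethylene (13.5%, beside 26.7% of all genes) and 8 in air (15.4%, beside 28.5%).

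The ENAP1 peaks at RLP genes lay mostly at the same places in ethylene and in air. Of the 14 ethylene peaks, 11 (78.6%) overlapped an air peak by at least 1 bp, beside 79.5% of the whole ethylene list. The other way, 11 of 14 air peaks (78.6%) overlapped an ethylene peak, beside 72.3% of the air list. By gene, 9 members were targets in both treatments, which was 75% of the ethylene and 69.2% of the air targets. Of all ENAP1 targets, 86.6% in ethylene and 81.6% in air were shared. RLP21, RLP32 and RLP54 were counted in ethylene alone, and RLP7, RLP13, RLP14 and RLP31 in air alone.

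In the ethylene reChIP list the highest RLP peak lay inside RLP56 (5:19980436-19980631), at 6.39-fold with 8 tags, −log10 q 5.12 and percentile 99.0. It lay 974 bp inside the gene and 1043 bp from the ENAP1 summit at the gene's edge. RLP9 (AT1G58190; 4.75-fold, 6 tags), RLP34 (AT3G11010; 4.72-fold, 6 tags), RLP57 (4.11-fold, 7 tags) and RLP31 (AT3G05370; 4.07-fold, 5 tags) followed. All of these but RLP57 lacked an overlapping ENAP1 peak. RLP34 had a further peak 458 bp outside (3.72-fold, 8 tags), where the air reChIP control stood at 3.42 times its median.

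In the air reChIP list 1 peak stood apart: a summit 911 bp from RLP3 (AT1G17250; 1:5900198-5900342) had 5.32-fold with 8 tags, −log10 q 3.56 and percentile 98.6. RLP3 is also called RFO2, for resistance to Fusarium oxysporum. The summit lay in the gap between RLP2 and RLP3, and the nearest ENAP1 summit was 4356 bp from it. The 3.92-fold peak beside RLP57 was the only other air reChIP peak at a member with a q of 0.05 or lower, and AT5G65840 was nearer to it, at 60 bp. The next in fold were RLP11, RLP23, RLP45 and RLP53, all at 3.75-fold with 5 tags and a q of 0.0507. In RLP37, RLP40 and RLP53 the summit also lay in an overlapping gene (XRCC4, AT3G24929 and AT5G27065), so these counts cannot be assigned to a single gene.

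In ethylene, few reChIP peaks at RLP genes overlapped an ENAP1 peak. Of 25 ethylene reChIP peaks at members, 2 (8.0%) overlapped an ethylene ENAP1 peak, those at RLP21 and RLP57, beside 17.4% of the whole list. The reChIP summit counted for RLP21 lay 987 bp away, inside AT2G25480 (2.92-fold, 3 tags, q of 0.0946). By gene, 9 of the 21 ethylene reChIP targets (42.9%) were also ethylene ENAP1 targets, beside 48.0% of all reChIP targets. The air reChIP and air ENAP1 lists share their control library, so their overlap is not counted. None of the 17 reChIP summits inside RLP genes in ethylene, and none of the 16 in air, was within 200 bp of a gene edge. The depths ran from 236 to 1920 bp in ethylene and from 390 to 3142 bp in air. The ENAP1 summits inside members were shallower, 3 of 6 within 200 bp of an edge in each treatment. Their median depths were 215 bp in ethylene and 217 bp in air. Depths were not computed over all genes, so they are not read as particular to RLP genes.

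Clustered and single members were then set side by side. A member was clustered where another RLP gene lay within 10000 bp, edge to edge. This gave 27 clustered genes in 10 arrays and 25 single genes. Of the arrays, 7 were pairs, and the largest, RLP24 to RLP28, had 5 members. The shares of targets were close in the ENAP1 lists. In ethylene they were 6 clustered (22.2%) and 6 single genes (24.0%), beside 36.4% of all genes. In air they were 7 (25.9%) and 6 (24.0%), beside 38.6%. In the air reChIP list they were 12 (44.4%) and 10 (40.0%), beside 30.5%. In the ethylene reChIP list they were 10 (37.0%) and 11 (44.0%), beside 34.0%. With a q of 0.05 or lower the ethylene reChIP held 4 clustered (14.8%) and 10 single members (40.0%), beside 22.5% of all genes. By the same cut the air reChIP held 1 (3.70%) and 1 (4.0%), beside 7.07%. The ENAP1 lists held 6 (22.2%) and 5 (20.0%) in ethylene, beside 34.4%, and 7 (25.9%) and 6 (24.0%) in air, beside 37.5%. None of these differences was tested.

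The position of the ENAP1 summits was compared as well, without a test. Inside the gene there was a summit at 1 of 27 clustered members (3.70%) in each treatment, RLP32 in ethylene and RLP13 in air. Among the 25 single members there were 4 (16.0%) in each, RLP45, RLP51, RLP52 and RLP57. Of all genes, 21.4% had a summit inside in ethylene and 23.6% in air. Under the nearest-gene rule, ENAP1 targets numbered 2 clustered and 5 single members in ethylene, beside 26.7% of all genes. In air they numbered 2 clustered and 6 single members, beside 28.5%. By that rule a summit between 2 array members counts for only 1 of them, as in the gap between RLP26 and RLP27. The arrays RLP11 to RLP12, RLP22 to RLP23, RLP37 to RLP38 and RLP39 to RLP42 had no ENAP1 target in either treatment. Array members can share near-identical stretches, where reads may not place uniquely. Alignments were named as filtered at a mapping quality of 30, and the effect on array counts was not tested.

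Between array members the ENAP1 signal could be high. In the array of RLP39 to RLP42 an ENAP1 peak of 10.6-fold in ethylene (3:9102974-9103842; pileup 124, percentile 99.4) and of 5.91-fold in air (3:9102953-9103767; pileup 165, percentile 93.5) lay between RLP39 and RLP40. Its summit was 1591 bp from RLP39 in ethylene and 1574 bp in air, outside the window, and 399 and 416 bp from AT3G24929, a gene that overlaps RLP40. An air reChIP peak of 3.91-fold with 11 tags (3:9103466-9103630) lay at the same place. In the array of RLP20 and RLP21, AT2G25460, a gene between them, held 4 ENAP1 summits in ethylene and 3 in air, up to 3.83-fold and 3.51-fold, while RLP20 had no summit within 1000 bp in any list.

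**Figure D4:**
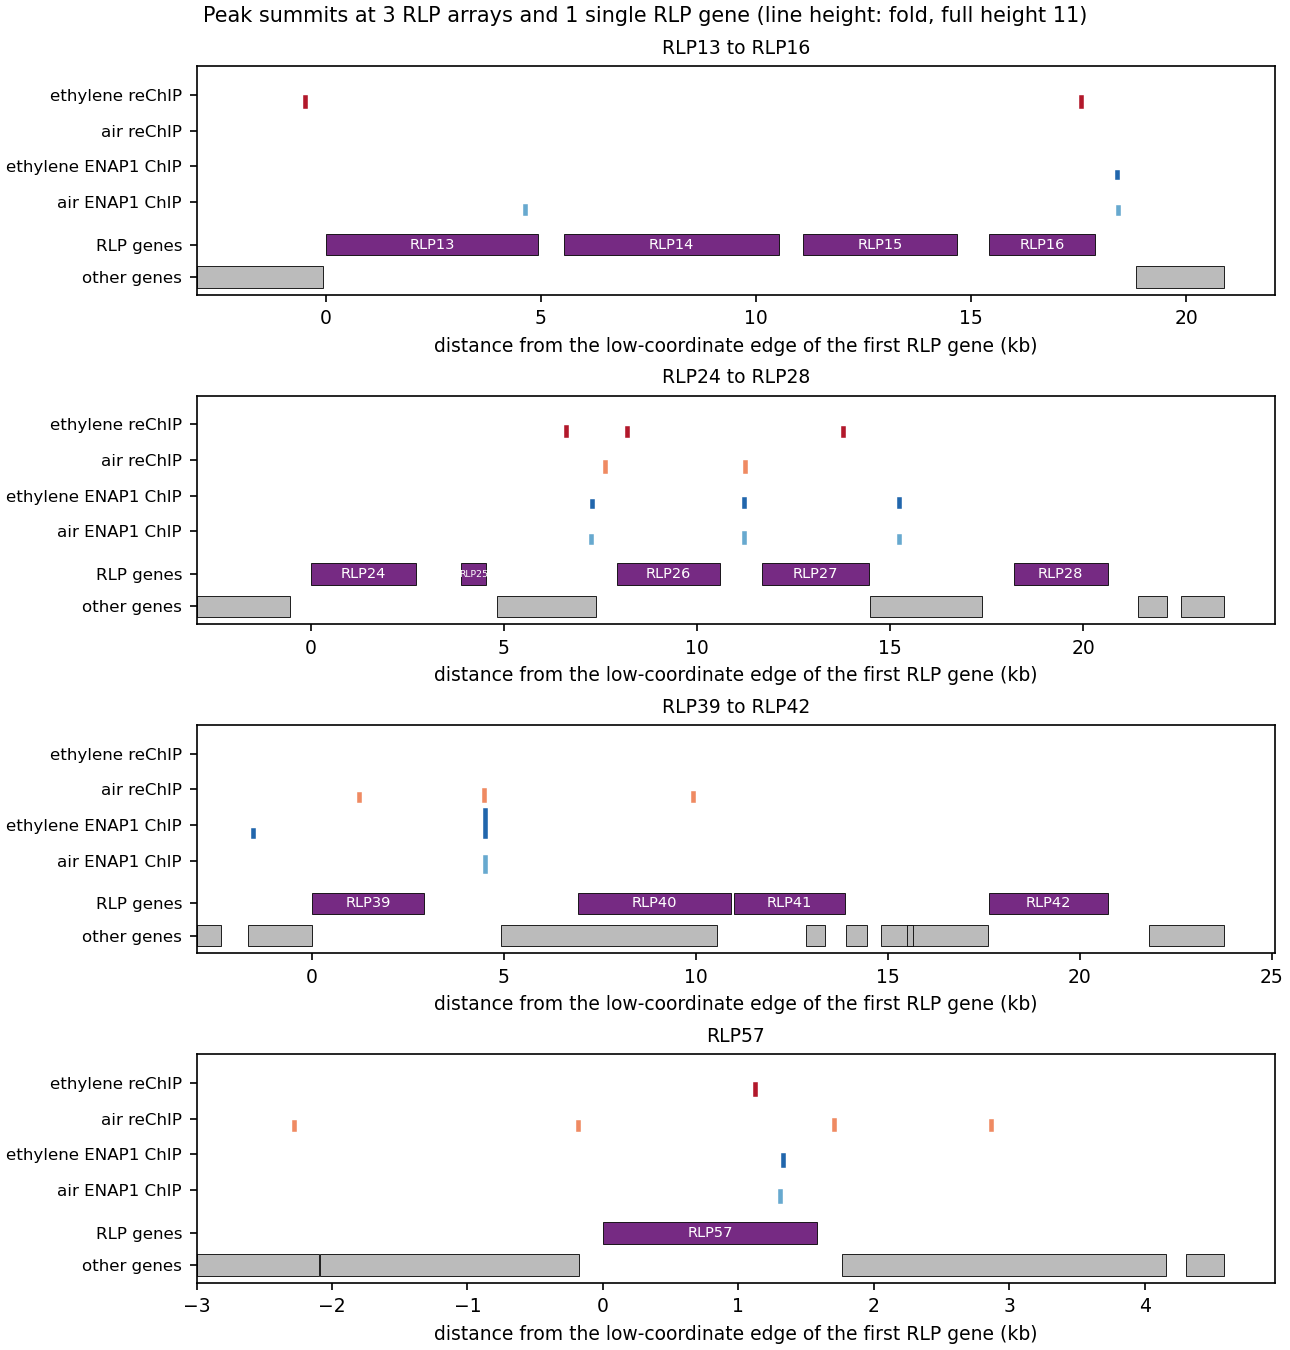
Peak summits of the 4 lists (vertical lines, height proportional to fold) along 3 RLP arrays and the single gene RLP57, with RLP genes in purple and other protein-coding genes in grey; the horizontal axis is the distance in kb from the low-coordinate edge of the first RLP gene. ENAP1 summits lie mostly beside or between RLP genes, as in the gap between RLP26 and RLP27 and next to RLP39, and inside RLP57.

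The nearest other genes on either side of RLP genes gave higher ENAP1 shares than the RLP genes. Of 82 such neighbours, 28 (34.1%) were ENAP1 targets in ethylene and 31 (37.8%) in air, beside 36.4% and 38.6% of all genes. They were targets of the ethylene reChIP in 32 cases (39.0%), beside 34.0% of all genes, and of the air reChIP in 21 (25.6%), beside 30.5%. The difference between RLP genes and neighbours was not tested.

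Apart from RLP32, the members described next for a known ligand or role had no ENAP1 summit within 1000 bp. RLP23 (AT2G32680), which senses a peptide of necrosis-inducing microbial proteins, was 2134 bp from the nearest ENAP1 summit in ethylene and 2263 bp in air. It had an ethylene reChIP peak of 3.65-fold and 4 tags and an air reChIP peak of 3.75-fold and 5 tags, 1271 bp apart inside the gene. RLP30 (AT3G05360), the receptor of a Sclerotinia elicitor, was counted for the ethylene reChIP through a peak in its neighbour AT3G05350 (2.90-fold, 3 tags). RLP1, which responds to a Xanthomonas factor, RLP42, the receptor of fungal polygalacturonases, and RLP44, which couples cell wall state to brassinosteroid signalling, had no summit within 1000 bp in any list. RLP55 (AT5G45770) had an ethylene reChIP peak of 3.39-fold and 4 tags alone. The other members without a summit in any list were RLP4, RLP5, RLP15, RLP19, RLP20, RLP24, RLP25, RLP28, RLP29, RLP33, RLP35, RLP41, RLP48 and RLP50, which made 17 with the 3 above (32.7% of members, beside 30.4% of all genes).

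The remaining members were targets of the reChIP alone. RLP6, RLP36 and RLP46 had summits in the ethylene list (3.39-, 3.08- and 3.65-fold) and in the air list (2.21-, 3.07- and 3.12-fold), none resting on more than 4 tags. The ethylene summit of RLP6 lay 697 bp away inside AT1G45545, and that of RLP36 lay 678 bp away inside CIPK7. RLP22 and RLP47 were targets in the ethylene list only, at 2.91- and up to 3.39-fold. RLP47 had 3 summits, one of them inside AT4G13820. RLP12, RLP38 and RLP43 were targets in the air list only, at 3.09-, 2.91- and 2.46-fold, and RLP40 at 2.76-fold. There RLP37 and RLP39 each had a peak of 3 tags. RLP12 can, like RLP2, replace CLV2.

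Some members lay close to the limit of 1000 bp. In the air ENAP1 list RLP14 (912 bp) was the farthest inside the limit and RLP4 (1005 bp) the closest outside it. In ethylene these were RLP21 (803 bp) and again RLP4 (1037 bp). For the ethylene reChIP they were RLP21 (987 bp) and RLP37 (1526 bp), and for the air reChIP RLP21 (715 bp) and RLP41 (1083 bp), by the nearest summit of each gene. The farthest member from any ENAP1 summit was RLP50 in ethylene (28889 bp) and RLP19 in air (30133 bp).

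The genes through which receptor-like proteins and related receptors signal gave other shares. Of a list of 27 partners, co-receptors, downstream genes and related receptors, 15 (55.6%) were ENAP1 targets in ethylene, beside 36.4% of all genes, and 20 (74.1%) in air, beside 38.6%. Of all genes of 2000 to 4000 bp, 43.3% and 45.4% were. Targets of the reChIP numbered 13 (48.1%) in ethylene, beside 34.0% of all genes, and 12 (44.4%) in air, beside 30.5%. With a q of 0.05 or lower they numbered 9 (33.3%) in ethylene, beside 22.5%, and 3 (11.1%) in air, beside 7.07%. These genes are long (median 3628 bp), the list was drawn up with earlier results of these data known, and the difference from the RLP genes was not tested.

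SOBIR1 (AT2G31880), the kinase partner of immune receptor-like proteins, had ENAP1 peaks inside the gene of 3.82-fold in ethylene (pileup 90.6) and 4.13-fold in air (pileup 131), and an ethylene reChIP peak of 3.80-fold with 10 tags. The co-receptor genes BAK1 (3.39- and 2.89-fold), SERK1 (4.90- and 4.99-fold) and SERK4 (3.99- and 2.99-fold) were ENAP1 targets in ethylene and in air. SERK2 was a target in the air reChIP list only, with 2 peaks of up to 3.45-fold. BIK1, a cytoplasmic kinase downstream of several receptors, had 4.57- and 4.18-fold peaks. Of the kinases that bind BAK1, BIR2 had 3.22- and 3.97-fold peaks and BIR1 1.63-fold in ethylene, with q above 0.05, and 2.43-fold in air.

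Downstream, EDS1 had ENAP1 peaks of 3.07-fold in ethylene and 3.65-fold in air. Its partner gene PAD4 had an air ENAP1 peak (2.19-fold) and the highest ethylene reChIP peak of the list (6.57-fold, 8 tags). The helper immune receptors ADR1-L1 (2.73- and 2.27-fold) and ADR1-L2 (2.90- and 3.36-fold) were ENAP1 targets in both treatments, while ADR1 had only an ethylene reChIP peak of 2.83-fold and 3 tags. Among receptor kinases with their own kinase domain, CERK1, which takes part in chitin sensing, had 5.11- and 5.48-fold ENAP1 peaks and PEPR1 2.89- and 3.14-fold ones. FLS2 (2.22-fold), EFR (3.09-fold) and BRI1 (2.80-fold) were ENAP1 targets in air alone, and PEPR2 only a reChIP target.

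CLV2 and TMM are receptor-like proteins that carry other symbols. CLV2, of stem cell control, had an air reChIP peak (4.37-fold, 6 tags) and no ENAP1 summit within 1000 bp, and TMM, of stomatal patterning, had no summit in any list. The kinases that act beside them had ENAP1 peaks in several cases: CLV1 (3.27-fold in ethylene, 7.11-fold in air), ER (3.27- and 3.17-fold), ERL2 (4.84- and 6.32-fold) and, in air with q above 0.05, ERL1 (1.95-fold). CRN, the pseudokinase partner of CLV2, had an air reChIP peak (3.69-fold) and no ENAP1 summit, and CLV3, the peptide gene, had none in any list.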

How the data were processed

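Per the labels, chromatin of whole seedlings was sequenced in 6 samples. The submitters' processing notes name TAIR10, BWA and MACS2 2.1.0.20150603. Each library was called against 1 control, per the file headers, with a p cutoff of 0.01, at most 1 tag kept per position and no pooling. The deposited measures used were the summit pileup, the authors' fold enrichment (a ratio to local control) and the −log10 q-value written by the authors' caller. The pileup is a height in tags, scaled in the ENAP1 ChIP lists. The headers announce that q is not computed, although q-values are given. Deposited −log10 p-values were not used for any call.

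Summits were assigned to genes with Python 3.11.15 and pandas 2.3.3, and the assignment was checked on planted data. RefSeq gene edges (TAIR10.1, whose nuclear chromosomes keep TAIR10 coordinates) were used without strand, so starts and ends are not told apart, and no sequence was used here. The control level under a peak was (pileup + 1) / fold − 1. The members and lists were chosen with earlier results of these data known. Genes named are RLP targets of both ENAP1 lists, of both reChIP lists or of both assays in a treatment, the 5 highest by fold in each list, RLP genes with a known role, neighbours that hold a counted summit, and pathway targets; the remaining members and the peak beside RLP39 were added after their values were seen. Of the pathway names, BIR3, PBL30 and PBL31 were not in the table, and SNC2 is RLP51. Alternatives were other windows, the nearest gene only, stricter peaks, whole peaks in place of summits, low control level, and other distances for arrays.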

Additional observations from a re-analysis of the deposited data

How the results depend on the processing

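Of 68 alternative values, 50 stayed within 1.5 times the count first given and 18 did not. The RLP share of ENAP1 targets stayed under that of all genes in each of 10 settings in both treatments. The RLP share in the reChIP was above it in 9 of 10 settings in ethylene, where the 2000 bp window gave 42.3% beside 43.8%, and in 7 of 10 in air. The air exceptions were q of 0.05 or lower, −log10 q of at least 5, and fold at or above the list median (17.3% beside 17.7%). Gene length was not among these settings. Among genes of 2000 to 4000 bp the ethylene reChIP share of RLP genes was the lower one, 37.5% beside 38.2%. With a q of 0.05 or lower it was 20.0% beside 25.5%. In air the shares at that length were 45.0% beside 33.7%, and 2.5% beside 7.69% by the q cut. The air reChIP count fell to 2 members at q of 0.05 or lower (1 clustered, 1 single), 0 at −log10 q of at least 5 and 9 at or above the median fold. These cuts use fewer peaks of the whole list too, and left 7.07%, 0.222% and 17.7% of all genes as targets. The ethylene reChIP count was 1 at −log10 q of at least 5, and its clustered count was 4 at q of 0.05 or lower and 6 with the nearest gene only. ENAP1 counts in ethylene were 5 without a window, 7 with the nearest gene only, 5 at −log10 q of at least 5 and 6 at or above the median fold, and in air 5, 8, 7 and 8. Clustered ENAP1 targets were 2 in each treatment with the nearest gene only. Arrays drawn at 5000 or 30000 bp changed no count by over 1.5 times. No paired analysis was possible because each group had 1 library. Depth limits the reChIP lists: 20 of 25 member peaks in ethylene and 21 of 24 in air rested on 3 to 5 tags. Over all peaks of these lists the median was 4 tags in ethylene and 5 in air, and the share with 3 to 5 tags was not computed.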

Other observations

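The RLP names of the gene table include 2 transcribed pseudogenes, RLP18 and RLP49, which were left out of all counts. Each had 1 air reChIP summit inside it, at 2.33-fold with 3 tags and 3.12-fold with 4 tags, both with q above 0.05, and no summit within 1000 bp in the other 3 lists.

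The cysteine-rich receptor-like kinases, named CRK and also arranged in arrays, were set beside the RLP genes as a description. The name rule gave 40 genes, of which 2 are CDPK-related kinases and were left out. Of the remaining 38, 9 (23.7%) were ENAP1 targets in ethylene and 9 in air, beside 36.4% and 38.6% of all genes. The ethylene reChIP had 15 of them as targets (39.5%, beside 34.0% of all genes) and the air reChIP 10 (26.3%, beside 30.5%). A summit lay inside 3 CRK genes (7.89%) in the ethylene and 2 (5.26%) in the air ENAP1 list, beside 21.4% and 23.6% of all genes. No test of either family against other genes was made.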
